A study of Mus musculus with 15 samples.

Results

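A set of 10 genes that mark macrophages and other leukocytes were examined in fusion-positive rhabdomyosarcoma (FP-RMS) of the mouse for the histone mark H3K27ac, which lies at active promoters and enhancers. They were Cd68, Cd14, Fcer1g, Csf1r, Adgre1, Ptprc, Cd74, Aif1, Spi1 and Itgam, and the peaks examined were those that overlapped the RefSeq span of a gene or the 20 kb on either side. Of 122375 peaks in the list, 72 lay in these regions, which covered 775 kb. A peak within 2 kb of a start site of the gene was called a promoter peak, any other peak in its span a gene-body peak and the rest flank peaks, which gave 5 promoter, 2 gene-body and 65 flank peaks. The series held 15 CUT&RUN libraries, of which 1 peak list, that of the H3K27ac library MCP replicate 5, was used here. MCP tumors carried Myf6-Cre, Cdkn2a(Flox/Flox), the reporter R26-tdTom and the PAX3-FOXO1 allele at Pax3, which the labels write as Pax(3P3F/P3F). Cre from the Myf6 locus acts in myogenic cells, where it removes Cdkn2a and turns on the fusion protein PAX3-FOXO1 and tdTomato. The age of the mouse is not given in the sources used here. With 1 library there was no replicate error and no test between groups, and all values describe this library.

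Macrophages and other leukocytes arise from blood-forming stem cells and enter solid tumors, where they sit among the tumor cells. PU.1, the product of Spi1, is the factor that opens many enhancers and promoters of myeloid genes, which often hold a purine-rich sequence that PU.1 binds and which often lack the CpG islands of widely used genes. CUT&RUN releases the DNA beside an antibody with a tethered nuclease, so a leukocyte in the sample would add its own marked promoters to the library. The tumors were digested to single cells and live cells were sorted, but whether the sort for this library was also gated on tdTomato is not stated in the sources used here. A weak mark in many cells and a strong mark in few cells cannot be told apart in a bulk library.

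The sequences under the promoter and gene-body peaks of Cd68, Fcer1g and Spi1 are shown first, because the question of signal from leukocytes turns on these few peaks. They are from the GRCm38 (mm10) genome, plus strand, with bases that RefSeq masks as repeats in capitals. The first Cd68 peak is shown as the 200 bp around its summit (chr11:69666483-69666682), and the others in full. The second Cd68 peak is chr11:69667864-69667954, the Fcer1g peak chr1:171232233-171232383, and the Spi1 peaks chr2:91090320-91090567 and chr2:91101711-91101793. None of these stretches touched an annotated exon.
Cd68 peak 1: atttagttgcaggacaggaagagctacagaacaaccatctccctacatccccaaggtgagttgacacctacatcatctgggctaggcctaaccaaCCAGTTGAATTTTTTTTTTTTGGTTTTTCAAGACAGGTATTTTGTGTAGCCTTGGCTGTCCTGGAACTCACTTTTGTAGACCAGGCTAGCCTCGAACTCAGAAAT
Cd68 peak 2: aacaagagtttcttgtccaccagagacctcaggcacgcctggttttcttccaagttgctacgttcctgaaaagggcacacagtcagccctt
Fcer1g peak: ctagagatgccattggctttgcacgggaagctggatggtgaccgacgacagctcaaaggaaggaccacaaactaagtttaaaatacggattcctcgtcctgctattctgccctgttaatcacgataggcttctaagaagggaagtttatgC
Spi1 peak 1: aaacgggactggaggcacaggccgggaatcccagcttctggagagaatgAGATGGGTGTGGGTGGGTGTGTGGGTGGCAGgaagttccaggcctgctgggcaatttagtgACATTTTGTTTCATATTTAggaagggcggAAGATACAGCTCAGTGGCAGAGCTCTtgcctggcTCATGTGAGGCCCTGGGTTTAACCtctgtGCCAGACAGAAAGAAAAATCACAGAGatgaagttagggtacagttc
Spi1 peak 2: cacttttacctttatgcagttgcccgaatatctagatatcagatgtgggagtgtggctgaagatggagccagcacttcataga
The summit of the first Cd68 peak lay at the edge of a masked repeat, and 52.5% of its 200 bp were masked. Over all 7 promoter and gene-body peaks of the 10 genes the mean masked share of this window was 18.9%, with 1 peak of 7 at 50% or more. Over all peaks of the list the mean was 17.5%, and 9.58% of peaks had at least 50% masked. The part of repeats in these peaks was not tested.

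Of the 10 genes, 3 had a promoter peak, which were Cd68, Cd14 and Fcer1g (30%, Wilson 95% interval 10.8 to 60.3%). Of 21000 protein-coding genes, 45.6% had one, so the interval of the 10 genes held the background share. Spi1 was the single gene with peaks in its body outside the promoter, against 33.2% of coding genes. A promoter or gene-body peak was found at 4 of 10 genes (40.0%, 16.8 to 68.7%), against 53.8%. For Csf1r, Adgre1, Ptprc, Cd74, Aif1 and Itgam no peak lay in the promoter or the span. With the flanks counted, 8 of 10 genes had at least 1 peak, beside 69.0% of coding genes.

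**Figure D1:**
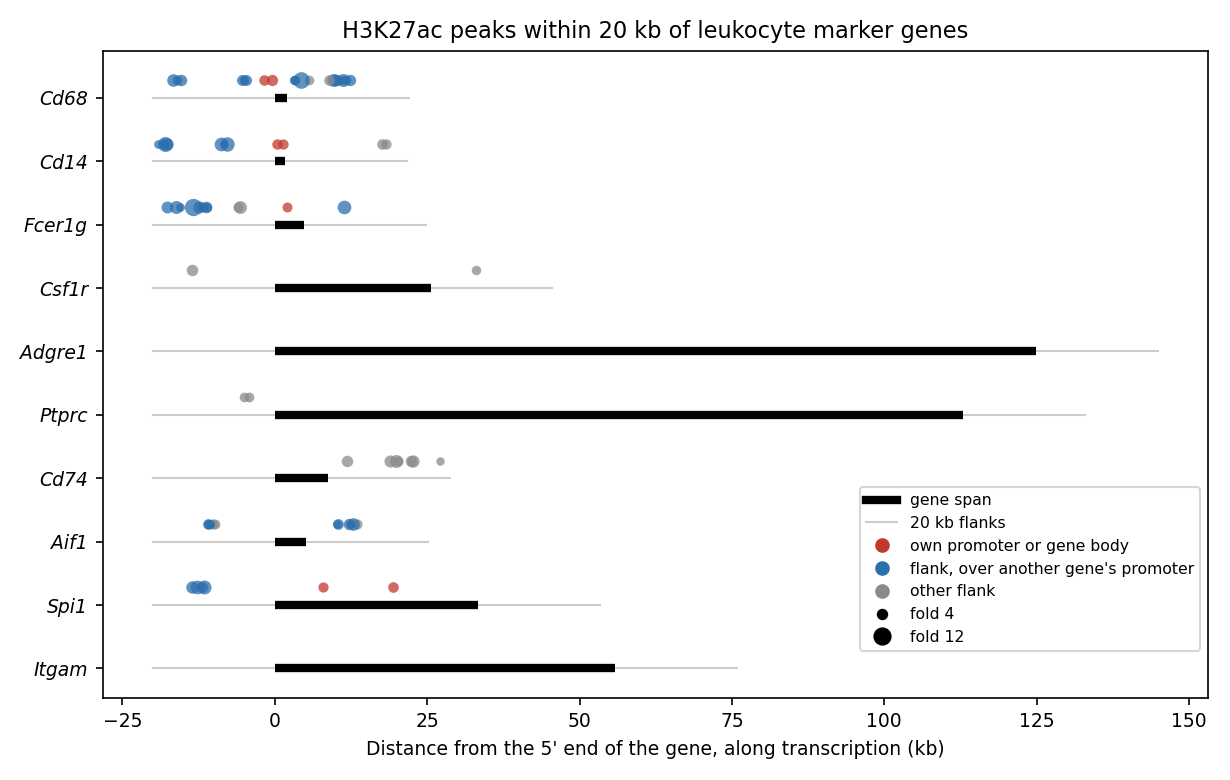
H3K27ac peaks in the region of each of the 10 genes. The horizontal axis is the distance from the 5' end of the gene in kb along transcription, black bars are gene spans, grey lines the 20 kb flanks, and each dot is a peak summit whose area grows with the fold over background. The 7 promoter and gene-body peaks (red) are few beside the 45 flank peaks over a promoter of another gene (blue), and Adgre1 and Itgam have no dot.

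Cd68, which encodes a lysosomal glycoprotein of macrophages (chr11:69664213-69666170, minus strand), carried the strongest of these peaks. That peak (chr11:69666265-69666655, 391 bp) was intergenic, with its summit upstream of the start site, at -413 bp. Its fold enrichment was 5.91 (95% counting interval 3.37 to 9.77), from 13 fragments. Fold enrichment is the scaled number of fragments over the summit divided by the IgG background around it, with a constant added to both. The median of all peaks was a fold of 5.22 and 13 fragments, so the strongest peak of the 10 genes was of ordinary height for this list. A second peak (fold 5.09, 11 fragments) had its summit at -1.725 kb, inside an intron of Eif4a1, a neighbour that encodes a helicase of translation initiation. Cd68 had no peak inside its own span.

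Cd14, the co-receptor for bacterial lipopolysaccharide (chr18:36725064-36726815, minus strand), had both of its peaks over the short gene. The broader one (chr18:36726429-36727067, 639 bp) covered the start site and reached past it out of the gene, had its summit in the intron 0.355 kb from the start, and reached a fold of 5.05 (3.03 to 7.99) from 16 fragments. The other (chr18:36725472-36725571) had its summit in an exon and a fold of 4.88 from 13 fragments. Cd14 was the one gene of the 10 with a peak over the start site itself.

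Fcer1g, the signaling gamma chain shared by Fc receptors (chr1:171229572-171234349, minus strand), was a borderline case. Its peak had a fold of 4.57 (2.43 to 8.02) from 10 fragments, and the summit lay in an intron 2.04 kb from the start site. It counted as a promoter peak only because its edge reached into the 2 kb window. Among the 9569 coding genes with a promoter peak, whose strongest promoter peak had a median fold of 7.24, Cd68 stood at percentile 28.5, Cd14 at 15.4 and Fcer1g at 9.13.

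Spi1, the gene of the myeloid transcription factor PU.1 (chr2:91082374-91115759, plus strand), had no peak at any of its 3 start sites. Its 2 gene-body peaks lay in introns. The 248 bp peak had a fold of 4.79 from 10 fragments and the 83 bp peak a fold of 5.22 from 11 fragments. Over the 7 peaks of the 10 genes the median fold was 5.05, with a range of 4.57 to 5.91, and 5 of 7 lay below the median of all peaks. These peaks rested on 10 to 16 fragments each, and the list as a whole had quartiles of 10 and 17.

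**Figure D2:**
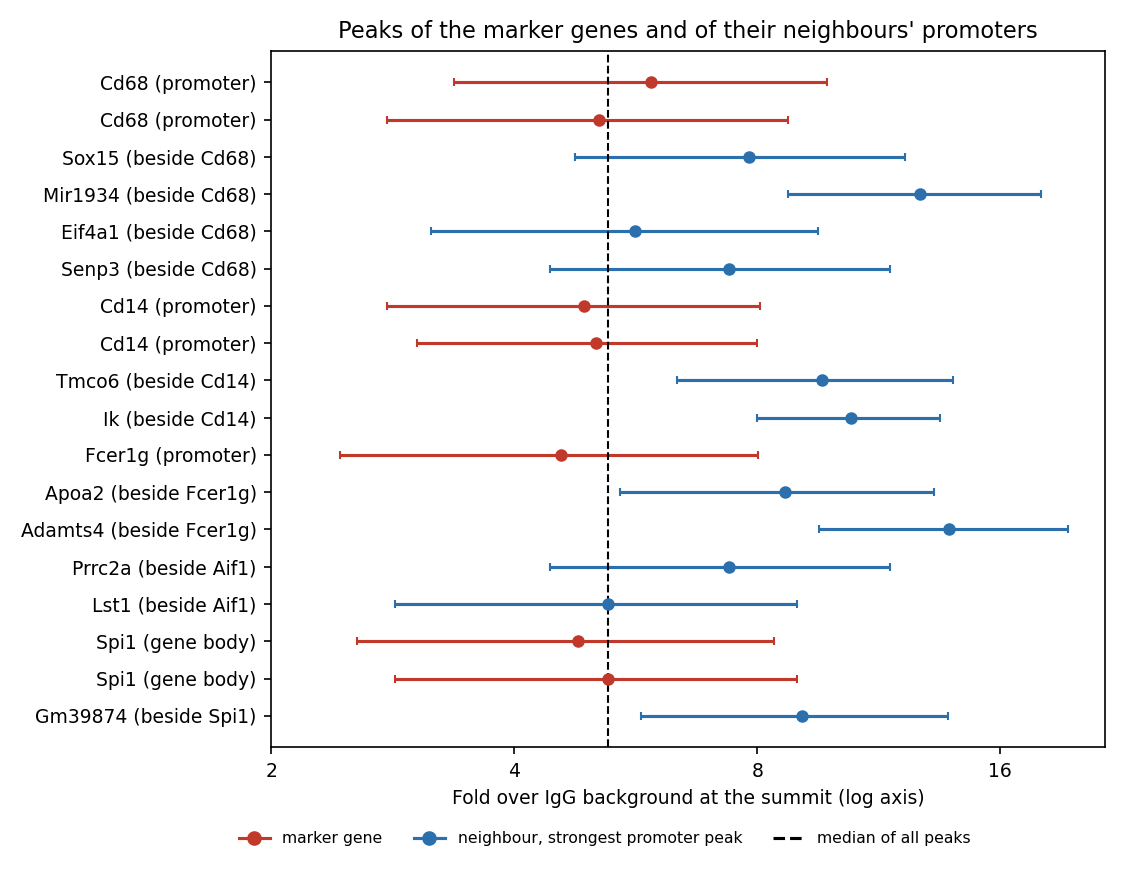
Fold over IgG background at the summit, on a log axis, for each promoter or gene-body peak of the marker genes (red) and for the strongest promoter peaks of neighbouring genes (blue), where a peak shared by several genes carries 1 name. Bars are 95% Poisson intervals of the fragment number with the background held fixed, and the dashed line is the median of all peaks, 5.22. The marker genes lie between 4.57 and 5.91, and the highest neighbour peaks reach 12.7 beside Cd68 and 13.8 beside Fcer1g.

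The genes with no peak of their own include defining markers of leukocytes. Ptprc encodes CD45, the phosphatase on the surface of nearly all nucleated blood cells, and its 113 kb span (chr1:138062859-138175756, minus strand) held none. At the density of the genome, 4.49 peaks per 100 kb, a span of this length would hold 5.07. Its nearest summits lay 4.68 and 5.41 kb upstream in intergenic sequence (-4.68 and -5.41 kb), each with 10 fragments and with folds of 4.36 and 4.38. Adgre1, the gene of the macrophage marker F4/80 (chr17:57358581-57483529, plus strand), had no peak in 125 kb, where the genome's density gives 5.61. The summit nearest to its start site was 83.0 kb away.

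Itgam, the integrin chain CD11b of myeloid cells (chr7:128062640-128118491, plus strand), also had no peak in its 55.9 kb, and the nearest summit was 131 kb away. Peak names are numbered along the genome and 1 number is absent in the gap that holds Itgam, between a peak that ends 131 kb before the span and one that starts 119 kb after it. A peak may therefore be missing from the list there, and what it held is not known here. Adgre1, Ptprc and Itgam are the 3 of the 10 genes that span 50 kb or more, and 3 of 3 had neither a promoter nor a gene-body peak. Of 4876 coding genes of that length, 26.8% had neither.

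Csf1r, the receptor through which colony-stimulating factor 1 keeps macrophages alive (chr18:61105572-61131139, plus strand), had no peak at its start site or in its body. A peak 13.5 kb upstream (-13.5 kb) in intergenic sequence had a fold of 6.08 from 13 fragments, and a further one with 9 fragments lay past the gene in an intron of Hmgxb3. Cd74, the invariant chain that escorts MHC class II molecules (chr18:60803849-60812652, plus strand), likewise had none of its own. Its 7 flank peaks had folds of 3.28 to 7.80, and each summit lay in an intron of Tcof1, the adjacent gene of ribosome production. Aif1, which encodes the actin-binding protein IBA1 of macrophages and microglia (chr17:35170986-35176083, minus strand), had 11 flank peaks and no peak closer than 9.83 kb to its start.

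The spans of the 10 genes held 5 peaks in 375 kb, or 1.33 per 100 kb, against 8.02 per 100 kb over the spans of protein-coding genes. The 3 long genes made up 294 kb of this with 0 peaks. The other 7 spans held 5 peaks in 81.3 kb, or 6.15 per 100 kb, against 11.8 per 100 kb over the spans of coding genes under 50 kb, a split added after seeing the data. The regions with their flanks held 9.29 per 100 kb, above the 4.49 of the genome. This higher density came with the neighbours: 45 of the 72 peaks (62.5%) overlapped a promoter window of another gene, and all 45 were flank peaks. In the whole list 21.9% of peaks overlapped a promoter. Away from any promoter, 22 peaks remained in the regions, or 2.84 per 100 kb, against 3.51 per 100 kb for the genome.

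Those 45 peaks belonged to 17 neighbouring genes, 14 of them protein-coding, beside Cd68, Cd14, Fcer1g, Aif1 and Spi1. Beside Cd68, the strongest promoter peak shared by Mir1934 and Mpdu1, a gene of protein glycosylation, had a fold of 12.7 (8.74 to 17.98) from 30 fragments. This interval overlapped that of the best Cd68 peak. Sox15, a transcription factor gene, reached 7.80, the shared promoter of Senp3 and Tnfsf13os 7.37, and Eif4a1 5.65. The summit of the peak with a fold of 7.37 lay in an exon of Tnfsf13. The Cd68 region, with 20 peaks the richest of the 10, took 16 of them from such promoters.

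Beside Cd14, the shared promoter of Ik and Ndufa2, the latter a subunit of respiratory complex I, had the deepest peak of any of the regions, with 58 fragments and a fold of 10.5 (7.99 to 13.5). Tmco6 beside the same gene reached 9.61. Beside Fcer1g, the strongest promoter peak of Adamts4, which encodes a protease of cartilage matrix, had a fold of 13.8 (9.55 to 19.4), an interval wholly above that of the Fcer1g peak. The shared promoter of Apoa2 and Tomm40l reached 8.67. Beside Spi1, the promoter of Slc39a13, a zinc transporter gene, and Gm39874 reached 9.10 (5.75 to 13.8). In each of these 4 regions the strongest neighbour exceeded the marker gene's own strongest peak in fold. For Cd14 (3.03 to 7.99) and Spi1 (2.85 to 8.96) the interval of the own peak overlapped that of the strongest neighbour, for Cd14 barely. Each marker gene had 1 or 2 own peaks, against 4 to 16 over other promoters, so these maxima rest on unequal numbers.

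In the Aif1 region, one of the neighbours is itself a leukocyte gene. Lst1, leukocyte specific transcript 1, had 3 promoter peaks with a best fold of 5.22 (2.85 to 8.96) from 11 fragments, which is the median of the list. Another 2 peaks lay further into its introns, with folds of 4.46 and 4.89. Prrc2a, a widely used gene on the other side of Aif1, had 5 promoter peaks with a best fold of 7.37. The intronic peaks of Lst1, and Tnfsf13, Tcof1 and Hmgxb3 as hosts of flank peaks, were named after their values were seen.

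The 10 promoters share a sequence feature that the choice of genes did not use, a low CpG content. The observed over expected CpG ratio within 500 bp of the start site was 0.114 (Adgre1) to 0.36 (Cd14), with a median of 0.205. Over all coding genes the median was 0.615. Low ratios were not particular to this set: among the lists described below, medians were 0.178 for red cell and 0.275 for hepatocyte genes. Housekeeping genes had a median of 0.787. Divided into 10 equal strata by this ratio, coding genes had a promoter peak in 4.62% of cases in the lowest stratum and 80.5% in the highest. The 10 genes fell into the lowest 4 strata, with 1, 4, 4 and 1 genes, where 4.62, 7.10, 15.2 and 26.0% of all coding genes had one. Among the 6790 coding genes with a ratio no higher than that of Cd14, 9.87% had a promoter peak, a share just below the interval of 10.8 to 60.3% around the 3 of 10. Without Fcer1g, whose summit lay outside the window, the count was 2 of 10 (20.0%, 5.67 to 51.0%), an interval that held the 9.87%. These counts give no measure of how often a list of this size would show such a difference.

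**Figure D3:**
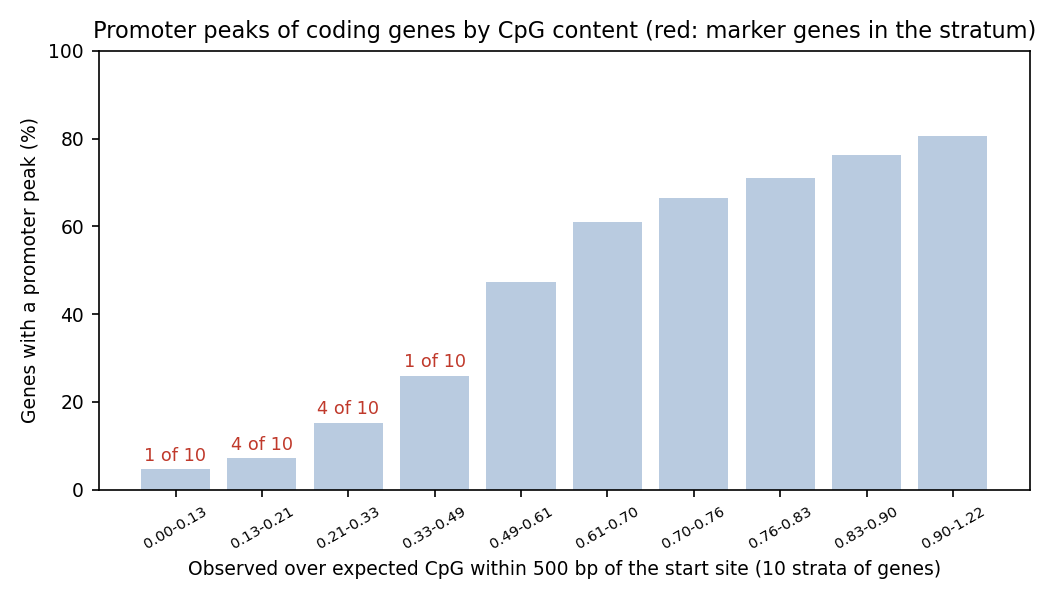
Share of protein-coding genes with a promoter peak (%) in 10 strata of 2100 genes by the observed over expected CpG ratio within 500 bp of the start site. Red numbers give how many of the 10 marker genes lie in a stratum, and all lie in the lowest 4, where the shares run from 4.62% to 26.0%.

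Letters that PU.1 is known to bind were searched in the 200 bp around each summit, on both strands. The pattern GAGGAAGT was in 5 of the 72 windows (6.94%, Wilson 95% interval 3.00 to 15.2%) and in 1.49% of all 122375. None of the 5 was a promoter or gene-body peak of a marker gene. They included a peak at the Mpdu1 promoter, the Csf1r peak 13.5 kb upstream (-13.5 kb) and the 2 intronic Lst1 peaks. Windows in 1 region lie close together and are not independent, and a match is a description of letters and not of binding. Patterns of other factors gave 5.56% against 7.99% for TGANTCA of AP-1, 22.2% against 15.8% for TGTGGT of RUNX and 11.1% against 9.97% for CAGCTG, an E-box of myogenic factors.

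Shown here are the summit windows of the intronic Lst1 peaks, because they lie in a leukocyte gene. Also shown are the 250 bases upstream of Cd68, because its strongest peak reaches into them. Capitals mark GAGGAA or its reverse complement TTCCTC, the shorter core within the pattern. This core was in 25.0% of the 72 windows (16.4 to 36.1%), an interval that held the 18.4% of all windows. In a RefSeq table of promoters (GRCm38), 31.3% of 27025 genes held it. The Lst1 windows are chr17:35185786-35185985 and chr17:35186171-35186370 on the plus strand, and the Cd68 stretch is chr11:69666171-69666420 on the minus strand. None touches an exon.
Lst1 window 1: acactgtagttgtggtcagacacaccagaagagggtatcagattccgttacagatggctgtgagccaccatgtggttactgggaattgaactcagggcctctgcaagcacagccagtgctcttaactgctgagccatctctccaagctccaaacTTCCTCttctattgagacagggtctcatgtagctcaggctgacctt
Lst1 window 2: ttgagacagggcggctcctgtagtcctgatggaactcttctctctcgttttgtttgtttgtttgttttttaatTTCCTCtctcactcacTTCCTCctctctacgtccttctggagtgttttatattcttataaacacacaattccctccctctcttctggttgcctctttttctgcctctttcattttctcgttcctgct
Cd68 upstream: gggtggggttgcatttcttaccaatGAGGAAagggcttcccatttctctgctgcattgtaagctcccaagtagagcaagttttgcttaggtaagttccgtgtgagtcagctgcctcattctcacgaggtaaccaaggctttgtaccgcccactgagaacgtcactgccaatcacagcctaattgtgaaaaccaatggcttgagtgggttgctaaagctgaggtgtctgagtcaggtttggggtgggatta
The first Lst1 window was 95% masked as repeat and the second 50.5%. In the promoter table, 5 of the 10 genes had an entry (Cd68, Fcer1g, Ptprc, Aif1 and Itgam). None of these held the full GAGGAAGT, which 3.69% of all genes did, and 4 of 5 held the shorter core.

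Other leukocyte lists held peaks at few of their genes. Of 20 other macrophage genes, 1 had a promoter peak, Mertk, a receptor for dying cells, with a fold of 5.14, and 4 of 20 (20.0%, 8.07 to 41.6%) had one in the promoter or the body. The other 3 were Cd163, Mrc1 and Mpeg1, with 9, 2 and 2 gene-body peaks, named here after their values were seen. Of 12 myeloid transcription factors, Runx1 (fold 13.4), Maf (6.08) and Irf8 (4.28) had promoter peaks, and Runx1 is used in many tissues beside blood. Of 6 MHC class II genes 1 had a promoter peak, H2-DMa (8.31), and of 11 T cell genes 1 did, Lck (7.80), but both of these peaks also lay over a promoter of another gene. Of 10 B cell genes Pax5 (6.94) and Blnk (6.82) had one, and of 10 granulocyte and mast cell genes Ly6g (5.55).

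Over these 6 lists, 9 of 69 genes (13.0%, 7.02 to 23.0%) had a promoter peak. A promoter or gene-body peak was found at 16 of 69 (23.2%, 14.8 to 34.4%). Both intervals lay below the shares of all coding genes, 45.6% and 53.8%. The first held 9.87%, the share with a promoter peak among coding genes with a CpG ratio no higher than that of Cd14. Median CpG ratios were 0.154 to 0.297 in these lists, except for 0.843 in the myeloid transcription factors. The 4 of 10 marker genes lay above the pooled share, but the intervals overlapped and the order did not hold for stronger peaks. When only peaks whose -log10 q reached 5 were counted, 2 of 10 marker genes (20.0%) had such a peak against 20.3% of the pooled genes, and among the strongest 25% of peaks 0 of 10 against 17.4%. Lists of hepatocyte, neuronal and red cell genes were set beside these. Of 10 hepatocyte genes 0 had a promoter or gene-body peak (upper bound 27.8%), of 10 neuronal genes 0 had a promoter peak and 3 a gene-body peak, and of 7 red cell genes 0 had either (upper bound 35.4%). The 3 neuronal genes, Syn1, Map2 and Syt1, named after their values were seen, span 60.4, 267 and 513 kb, against 33.4 kb for Spi1.

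The labelled lineage of the tumor was checked in the same way. Of 12 myogenic genes, which define the labelled tumor, Pax3 (fold 18.1) and Myf6 (5.97), the loci that carry alleles of the model, had promoter peaks. Myod1 and Myog, the factors that drive muscle differentiation, and Des, the muscle filament gene, had no promoter or gene-body peak, and the list as a whole had one at 3 of 12 (25.0%, 8.89 to 53.2%). With the flanks counted, 9 of 12 myogenic genes had a peak, beside 69.0% of coding genes. Among the 9 were Myf5 with 15 flank peaks, Fgfr4 with 8, Des with 7 and Chrna1 with 6. How many of these flank peaks lay over a promoter of another gene was not counted. Of 10 fibroblast genes 5 had a promoter peak, led by Prrx1 (fold 15.1) and Col3a1 (13.4). Of 12 endothelial genes 1 had one, Cd34 (9.10), and 5 had a promoter or gene-body peak. All of 10 housekeeping genes did. The best promoter peak of the 10 marker genes, 5.91, was close to that of Myf6 and lay below those of Pax3, Prrx1 and Col3a1.

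**Figure D4:**
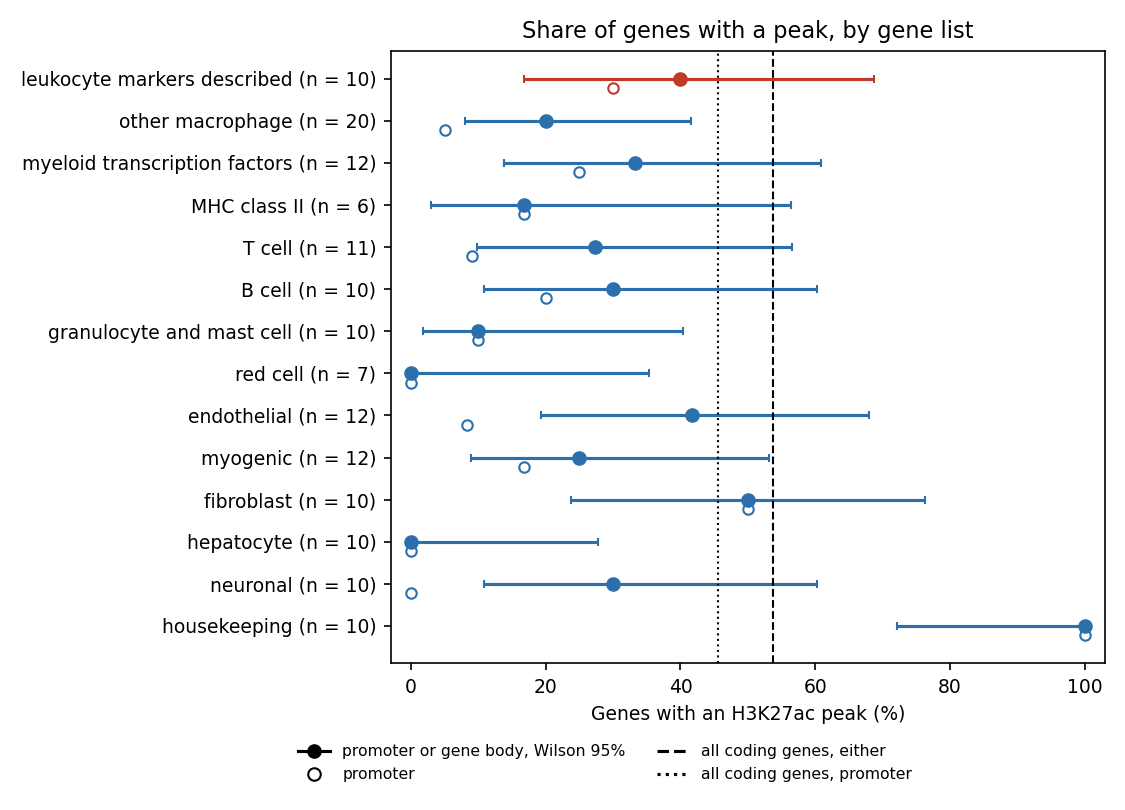
Share of genes (%) with an H3K27ac peak for the 10 marker genes (red) and 13 other lists (blue). Filled points are genes with a promoter or gene-body peak with Wilson 95% intervals, open points genes with a promoter peak, and the lines give all coding genes (dashed 53.8%, dotted 45.6%). The marker genes stand at 40.0% and 30%, within a wide interval of 16.8 to 68.7%.

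Whether infiltrating cells added signal was asked of these values. Peaks of ordinary height for this list (folds of 4.57 to 5.91, median of all peaks 5.22) were present at Cd68, Cd14, Fcer1g and Spi1. No promoter or gene-body peak was present at Ptprc, Adgre1, Csf1r, Cd74, Aif1 or Itgam. A peak list shows no signal below its threshold, so the lack of a peak does not show the lack of the mark. Leukocytes in the sorted cells and low activity of these genes in tumor cells cannot be told apart from this list.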

How the data were processed

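H3K27ac was profiled by CUT&RUN in nuclei of sorted MCP tumor cells. The authors' methods describe mapping to mm10 with bowtie and peak calling with an early MACS release against IgG, while the submitters' processing notes name BWA, SAMtools and MACS2, so the exact steps behind the list are not known here. Those methods also describe the removal of reads from ENCODE problematic regions and from an amplification close to Col19a1, and whether this was done for the list is not known here. The deposited fold enrichment is a ratio at the summit, and the deposited -log10 p-value and -log10 q-value come from the same caller.

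Fragment numbers were recovered as whole numbers that solve fold and p together (scale 0.885, within 0.01, 100% of peaks, a single solution for 96.0%). They are inferences, and intervals cover counting error only. Peaks were joined to RefSeq genes (GRCm38.p6, 31601 start sites) with 1 bp of overlap using Python 3.11.15 and pandas 2.3.3, and the steps were tested on simulated data. Shares have Wilson 95% intervals. No p-values were computed. Of the other leukocyte, stromal and control lists, genes with a promoter peak were named, at most 4 per list by fold, along with the neighbours whose promoters a peak overlapped, of which 1 is not reported here. The members and lists were chosen with earlier results of these data known. Trbc1 and Ahsp matched no gene. The repeat-masked shares and the shorter pattern GAGGAA were added after seeing the data.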

Additional observations from a re-analysis of the deposited data

How the results depend on the processing

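No replicates exist for this list, so no setting could be set against replicate spread. Of the summary values recomputed under the alternatives, 29 stayed close to the reported value (counts within 1.5 times) and 17 moved. With peaks of a -log10 q of at least 5, the 10 genes had 2 with a promoter or gene-body peak and 0 with a gene-body peak, and their regions held 41 peaks, 29 over another promoter. Among the strongest 25% of peaks, 0 genes had a promoter peak, 0 a gene-body peak and 0 either, the regions held 25 peaks, 21 of them over another promoter, and 0% of summits held GAGGAAGT. A promoter window of 1 kb gave 3 genes with a gene-body peak, and assigning peaks by their summit gave 2. Without peaks over other promoters 27 remained in the regions. Flanks of 10 kb gave 39 peaks, 21 over another promoter, and flanks of 50 kb 136 and 81. No paired analysis was possible because 1 library was used and no test was made. Heights of 10 to 16 fragments limit what can be said of any single peak.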
